A study of Mus musculus with 6 samples.

Results

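The TNF superfamily was measured in naive CD4+ T cells that had been taken from the spleen of C57BL/6 mice and cultured with neutrophil extracellular traps (NETs) or with vehicle. Its members were chosen by name and not by any measured value, as the protein-coding genes called Tnfsf, Tnfrsf or Traf1 to Traf7 together with Tnf, Lta, Ltb, Ltbr, Cd40, Cd40lg, Cd27, Cd70, Fas, Fasl, Tradd, Fadd and Ripk1. This gave 51 of the 22046 protein-coding genes in the table: 17 ligands, 24 receptors and 10 adaptors or kinases. NETs are webs of chromatin and granule proteins that neutrophils release. Both groups, of 3 libraries each, carried the same other additions for the 72 h of culture: beads against CD3 and CD28, IL-2, and blocking antibodies against IFNγ and IL-4. The vehicle group differed by the label only in lacking NETs. The labels used here state neither the age and sex of the mice nor where the NETs came from or how much was added.

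Ligands of this superfamily are mostly trimeric membrane proteins, some of which are shed, and each binds one or a few receptors. The receptors have no enzyme activity. Those without a death domain recruit TRAF adaptors, which pass the signal to the kinases that free NF-κB, and those with a death domain can also recruit TRADD or FADD and set off caspases. On activated CD4+ T cells, OX40 (Tnfrsf4), GITR (Tnfrsf18), CD137 (Tnfrsf9) and CD27 deliver costimulation, whereas CD40 ligand, lymphotoxin and TNF carry signals from the T cell to other cells.

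Library totals ranged from 15657622 to 18655997 counts. On the first principal component of all genes tested (32.9% of the variance), vehicle replicate 3 lay at 11.4, next to NETs replicate 2 at 11.9, and vehicle replicate 2 lay farthest out at −40. NETs replicate 3 stood apart on the second component, at −36.7. Each library was left out in turn, and adjusted calls among the members appeared only without vehicle replicate 3. Markers of CD4+ T cells were abundant in every library, with a summed level of 3744 to 4293 CPM (a count scaled to a fixed library total) with vehicle and 3729 to 4030 CPM with NETs over 8 genes. Of 8 neutrophil markers, 7 had reads, Ly6g had 0, and the sum was 1.74 to 2.75 CPM with vehicle and 3.96 to 4.96 CPM with NETs. The sum of 8 macrophage, monocyte and dendritic cell markers, all with reads, was 29.9 to 39.9 CPM with vehicle and 39.5 to 52.2 CPM with NETs. Of the 6 B cell markers, all had reads, with sums of 17.9 to 19.4 CPM and 13.5 to 19.98 CPM. For 5 NK cell markers, of which Klra8 had 0 reads, the sums were 6.07 to 10.4 CPM and 5.89 to 7.94 CPM, and for 2 CD8 genes 18.4 to 20.8 CPM and 13.1 to 19.5 CPM. In bulk RNA, fewer cells of a type and less RNA per cell cannot be told apart.

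Levels were compared between genes in FPKM, the deposited read count scaled by gene length and library size. Ltb, the membrane anchor of the lymphotoxin heterotrimer, was highest with a mean of 579 FPKM over the 6 libraries (range 490 to 673). The costimulatory receptors Tnfrsf18 (283 FPKM, range 244 to 330), Tnfrsf4 (246, range 206 to 275) and Cd27 (217, range 174 to 278) came next. Their ranges overlapped one with the next, while the lowest value of Ltb lay above the highest of Tnfrsf18. A gap separated them from Traf7 (127 FPKM), Lta (109), Traf1 (109), Tnfrsf13b (97.0) and Tnfrsf25 (96.2), whose ranges overlapped in that order. Tnfrsf13b encodes TACI, best known from B cells, and Tnfrsf25 encodes the death domain receptor DR3. Fas, the receptor that starts the extrinsic death pathway, followed at a mean of 72.0 FPKM and below the range of Tnfrsf25.

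**Figure D1:**
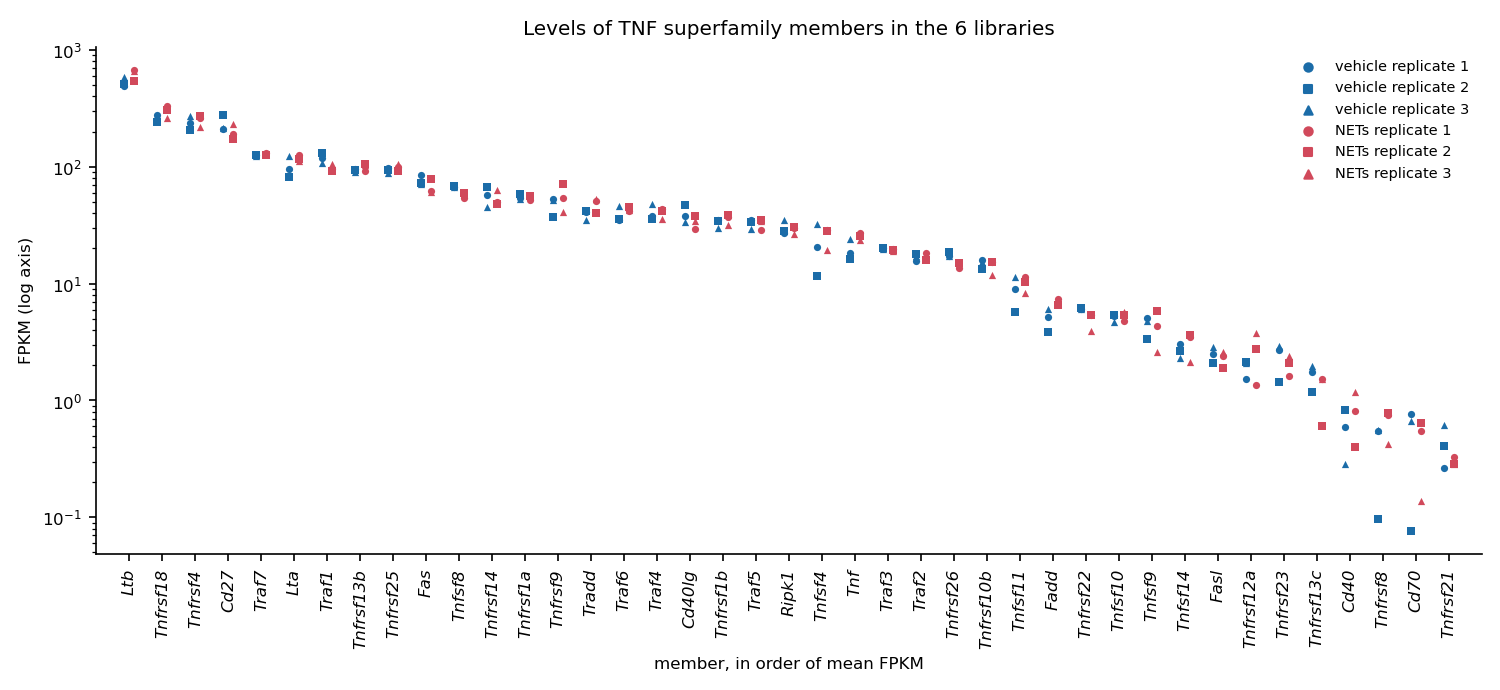
Deposited FPKM (log axis) of the 41 members with a mean of at least 0.3 FPKM, in order of level, with one point per library, blue for vehicle and red for NETs. Ltb stands alone at the top, and neighbours in the order overlap almost throughout.

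Of the 50 steps between neighbours in this order, 45 joined members whose ranges over the 6 libraries overlapped. The other 5 steps lay below Ltb, below Cd27, below Tnfrsf25, below Traf3 (19.8 FPKM) and below Tnfrsf10b (14.5 FPKM), the mouse receptor for TRAIL. The filter on low counts removed 10 members (Cd70, Ltbr, Tnfsf12, Tnfrsf19, Tnfsf15, Tnfrsf17, Tnfsf13b, Tnfsf13, Tnfrsf11b and Tnfsf18), so 41 of 51 were tested. The removed members had 0 to 42 reads in all 6 libraries together, and 4 of them, Tnfrsf17, Tnfsf13, Tnfrsf11b and Tnfsf18, had fewer than 10. Tnfsf18, the ligand of GITR, had 0 reads in both groups, which at this depth allows up to 3 reads, or 0.0595 CPM with vehicle and 0.0569 CPM with NETs (counting error only).

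Ligands were set beside receptors they are known to bind, in 17 chosen pairs. Lta, at 100 FPKM in vehicle, is in none of them, and Tnf is paired with both Tnfrsf1a and Tnfrsf1b. Some pairs were low on both sides, such as Tnfsf12 and Tnfrsf12a at 0.0672 and 1.93 FPKM in vehicle. The counts therefore hold for this choice of pairs only. In 13 of 17 pairs the receptor was above the ligand in vehicle, and in 4 the ligand was above the receptor. The GITR pair was the extreme of the first kind, with Tnfrsf18 at 266 FPKM in vehicle and 299 FPKM in NETs and its ligand listed at 0. Cd27 stood at 235 and 199 FPKM, and its ligand Cd70 at 0.501 and 0.446 FPKM. OX40 differed in that its ligand Tnfsf4 was also present, at 21.6 FPKM in vehicle and 25.4 FPKM in NETs beside 239 and 252 FPKM for Tnfrsf4.

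Among the 4 pairs of the second kind, Ltb reached 530.5 FPKM in vehicle and 628 FPKM in NETs, while its receptor Ltbr, a gene of stromal and myeloid cells, had 0.0193 and 0.311 FPKM. Cd40lg, which licenses B cells and dendritic cells, stood at 39.5 and 33.9 FPKM and Cd40 at 0.568 and 0.796 FPKM. Tnfsf8, the CD30 ligand, stood at 67.7 and 57.6 FPKM, and its receptor Tnfrsf8 at 0.401 and 0.652 FPKM. Tnfsf11, which encodes RANK ligand, had 8.67 and 9.98 FPKM, and RANK itself (Tnfrsf11a) had 0.0377 and 0.412 FPKM. These are levels in the same cultures and carry no test.

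**Figure D2:**
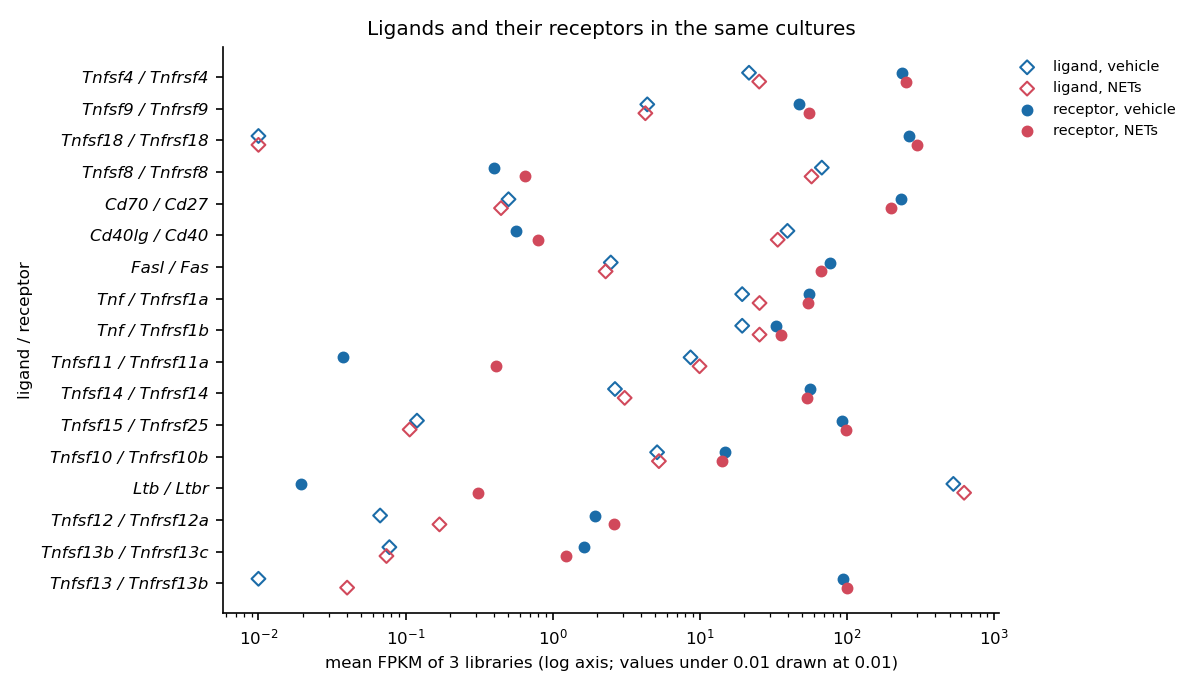
Mean FPKM (log axis) of ligands (open diamonds) and their receptors (filled circles) in vehicle (blue) and NETs (red) libraries, n = 3 each, with values under 0.01 drawn at 0.01. In 13 of the 17 chosen pairs the receptor lies to the right of the ligand in vehicle.

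The comparison of NETs with vehicle asks whether NETs altered this signalling family in activated CD4+ T cells. With edgeR's quasi-likelihood test and adjustment over all genes, 0 of the 41 members tested passed, as did 0% of the 13900 genes tested. DESeq2 called 0 members but gave no adjusted p for 14 of these 41, Fadd and Tnfrsf11a among them. It called 2.39% of the 6778 genes with an adjusted p. Limma-voom and limma-trend on FPKM also called 0 members, and 1 and 2 of the 13900 genes tested. At an unadjusted p under 0.05 there were 8 members. Higher with NETs were 5 (12.2%, against 6.72% of all genes tested), namely Tnfrsf11a, Fadd, Tnf, Ltb and Tradd. Tnfrsf11a had under 10 reads in every vehicle library and so passed the filter on low counts only through the NETs libraries, where it is high, and without it 4 of 40 were higher. Lower were 3 (7.32%, against 6.06%), namely Traf1, Tnfrsf26 and Tnfsf8. The log2 ratio is the fitted log2 of NETs over vehicle. Its median was 0.05 over the members and 0.00 over all genes tested, and 24 of 41 members lay above 0 (58.5%, against 50.2%).

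The 3 NETs libraries lay wholly above the 3 vehicle libraries in 2 members tested (4.88%, against 7.68% of all genes tested), Tnfrsf11a and Fadd, or 1 of 40 without Tnfrsf11a. They lay wholly below in 5 (12.2%, against 9.04%), which were Traf1, Tnfsf8, Traf3, Tnfrsf26 and Tnfrsf22. Ltbr was also wholly above in CPM but was not tested, and its vehicle replicate 1 and NETs replicate 1 held 1 read each. The counts at an unadjusted p depended on single libraries, over all genes as over the members. Higher were 2 members without vehicle replicate 1 (against 4.08% of all genes tested), 3 without NETs replicate 1 (against 3.03%) and 8 without vehicle replicate 3 (against 11%). Lower was 1 member without vehicle replicate 2 (against 3.76%) and 1 without NETs replicate 1 (against 3.02%). Without vehicle replicate 3, edgeR called 3 of 41 members (7.32%), Tnf, Lta and Fadd, all higher, where it called 2.81% of 14391 genes.

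**Figure D3:**
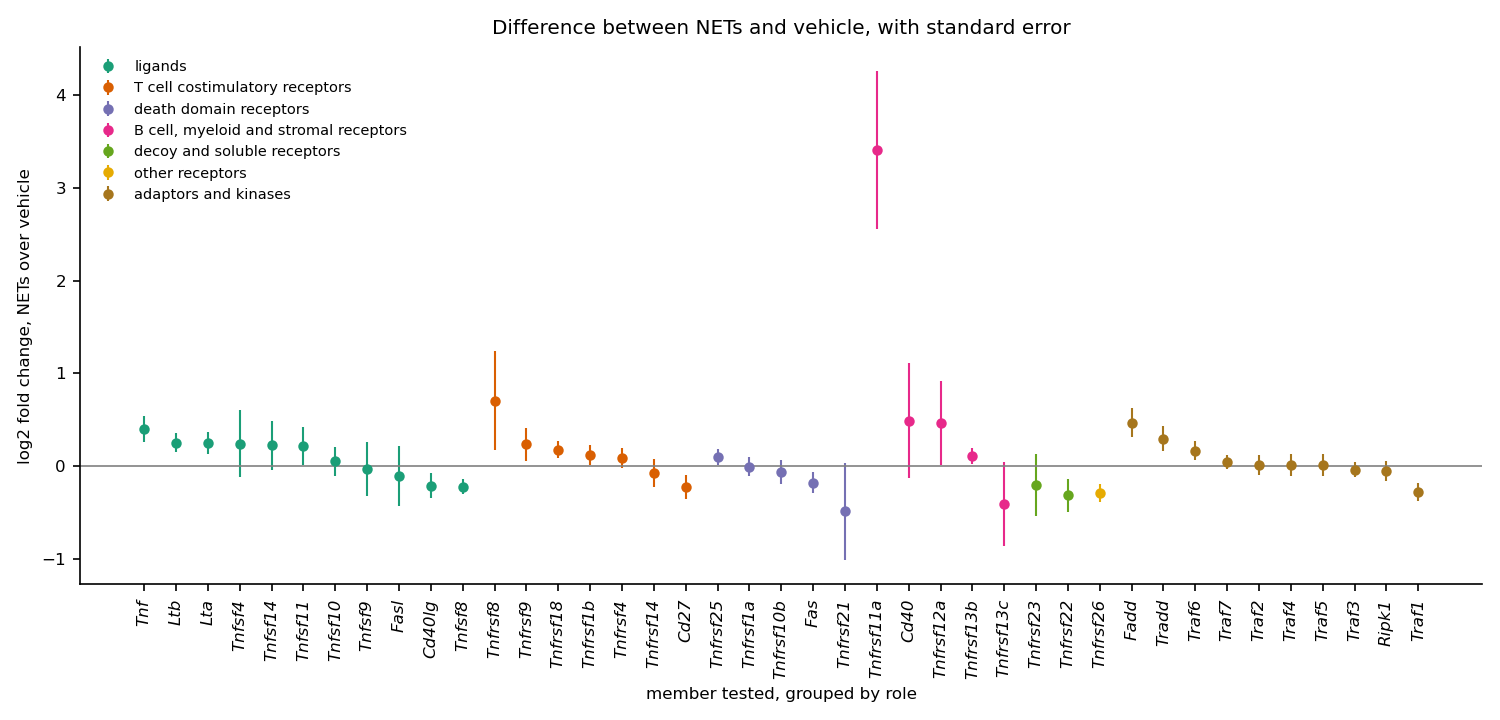
Log2 ratio of NETs over vehicle with its standard error (edgeR, 3 libraries a group) for the 41 members tested, grouped by role. Tnfrsf11a, at 3.41, is far above the rest and rests on 52 reads, and Tnf, Ltb and Lta lead the ligands, Ltb and Lta by little.

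Among the ligands, the 3 genes of the TNF locus on chromosome 17 had the highest log2 ratios. Tnf stood at 0.40 (SE 0.14). Ltb (0.26, SE 0.10) and Lta (0.25, SE 0.12) were close to Tnfsf4 (0.24, SE 0.36), Tnfsf14 (0.23, SE 0.265) and Tnfsf11 (0.22, SE 0.20). Tnf, Lta and Ltb are neighbours inside the MHC, with 3060 bases between Ltb and Tnf, 1157 bases between Tnf and Lta and no other protein-coding gene in either gap. Tnf encodes the inflammatory cytokine that gives the family its name, and Lta encodes lymphotoxin alpha, which is secreted alone or joins the Ltb product on the membrane. Their upstream sequences are shown because the 3 genes lie side by side and share a direction here, with that of Traf1, which lay in the other direction, for comparison. They are from RefSeq (GRCm38.p6), 5′ to 3′ on the gene's strand, up to 250 bases before the annotated start and ended where an annotated exon begins, and capitals mark matches to a κB-type motif on either strand, spelled GGG, then any 5 bases, then CC.
Tnf, chr17:35202008-35202257, minus strand: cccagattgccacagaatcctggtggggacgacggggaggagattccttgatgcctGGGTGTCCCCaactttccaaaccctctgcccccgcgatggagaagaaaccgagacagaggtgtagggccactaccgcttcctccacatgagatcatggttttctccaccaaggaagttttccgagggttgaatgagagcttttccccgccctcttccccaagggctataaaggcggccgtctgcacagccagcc
Lta, chr17:35205352-35205601, minus strand: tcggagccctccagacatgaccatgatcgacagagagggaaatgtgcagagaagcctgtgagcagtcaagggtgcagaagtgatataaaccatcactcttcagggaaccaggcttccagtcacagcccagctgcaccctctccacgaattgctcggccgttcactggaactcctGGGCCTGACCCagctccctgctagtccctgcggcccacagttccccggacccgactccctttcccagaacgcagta
Ltb, chr17:35194257-35194438, plus strand: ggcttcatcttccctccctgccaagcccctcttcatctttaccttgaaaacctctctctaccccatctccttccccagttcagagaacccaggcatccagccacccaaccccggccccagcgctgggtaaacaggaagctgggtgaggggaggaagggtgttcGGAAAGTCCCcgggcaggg
Traf1, chr2:34961773-34962022, minus strand: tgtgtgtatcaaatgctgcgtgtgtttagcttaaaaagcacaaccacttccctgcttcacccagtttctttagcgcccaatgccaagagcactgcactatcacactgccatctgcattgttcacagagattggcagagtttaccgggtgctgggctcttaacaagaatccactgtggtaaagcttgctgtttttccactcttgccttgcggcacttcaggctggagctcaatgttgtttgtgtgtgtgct

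The motif, which may overlap itself and its own reverse strand, matched in all 3 windows of the TNF locus, and no match was found in the Traf1 window. These windows were picked with the directions known, and of other members Fadd, higher with NETs, and Tnfsf8, lower, held 0 matches, and Tnfrsf11a, higher, held 3. The printed Ltb match reads GGGACTTTCC on the minus strand. Only the 182 bases of that window that lie before an annotated exon are printed, and its other matches fall in the remainder. RefSeq windows were found for 33 of the 41 members tested, and 27 of their 36 windows of 250 bases held a match. The share was 60.7% of 12639 windows of all genes tested and 45.8% of all 32851 windows, with a mean GC content of 57.7%, 59.7% and 53.2% in the same order. A match describes the letters and is not evidence of binding.

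Tnf (ENSMUSG00000024401; chromosome 17, 35199381 to 35202007) had 28.4, 24.97 and 37.1 CPM in vehicle replicates 1 to 3 and 42.2, 39.8 and 36.6 CPM in NETs replicates 1 to 3. The groups overlapped only because vehicle replicate 3 exceeded NETs replicate 3. Its means were 30.1 ± 6.26 and 39.6 ± 2.81 CPM (n = 3 each, ± SD). The fitted ratio of Tnf was 1.32, a log2 ratio of 0.40 (SE 0.14; edgeR adjusted p = 0.271). Without vehicle replicate 3 the log2 ratio was 0.58 and the edgeR adjusted p 0.0311. Over all alternatives the adjusted p of Tnf ranged from 0.0311 to 0.812, the highest being without NETs replicate 1, and the log2 ratio was 0.29 without vehicle replicate 2.

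Lta had 132, 113 and 169.6 CPM with vehicle and 173, 161 and 154 CPM with NETs. Vehicle replicate 3 again lay among the NETs libraries, and the other 2 vehicle libraries below them. Its log2 ratio was 0.25 (SE 0.12; edgeR adjusted p = 0.401), 0.42 without vehicle replicate 3 (adjusted p = 0.0339) and 0.13 without vehicle replicate 2 (adjusted p = 0.816). Ltb had 568, 591 and 686 CPM with vehicle and 781, 633 and 771 CPM with NETs. Here NETs replicate 2 lay below vehicle replicate 3. The log2 ratio of Ltb was 0.26 (SE 0.10; edgeR adjusted p = 0.314), and 0.34 without vehicle replicate 3 (adjusted p = 0.0762).

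Tnfsf8 was the ligand with the tightest groups and lay in the other direction. It had 254, 262 and 257 CPM with vehicle and 208, 225 and 225 CPM with NETs, so that the groups did not overlap. The log2 ratio was −0.22 (SE 0.08; edgeR adjusted p = 0.275). Cd40lg had 47.0, 58.9 and 42.2 CPM with vehicle and 36.8, 47.0 and 43.3 CPM with NETs, overlapping groups with a log2 ratio of −0.21 (SE 0.14; adjusted p = 0.536), and −0.05 without vehicle replicate 2.

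Among the remaining ligands the groups overlapped. Tnfsf4 had 38.0, 21.3 and 60.2 CPM with vehicle and 52.5, 52.0 and 35.8 CPM with NETs, and its vehicle SD was 49.0% of the vehicle mean. Tnfsf11 had 19.9, 12.8 and 25.4 CPM with vehicle and 25.3, 23.1 and 18.5 CPM with NETs. In both genes vehicle replicate 2 was lowest and vehicle replicate 3 exceeded every NETs library. Vehicle replicate 3 was the highest vehicle library in 6 of 11 ligands tested (54.5%, against 36.9% of all genes tested), and vehicle replicate 2 the lowest in 6 (54.5%, against 39.3%). Tnfsf14, which encodes LIGHT, averaged 4.90 and 5.71 CPM in vehicle and NETs, Fasl 2.91 and 2.69 CPM, Tnfsf9 5.68 and 5.51 CPM and Tnfsf10, the TRAIL gene, 15.4 and 15.8 CPM. Cd70 had 12, 1 and 9 reads with vehicle and 8, 10 and 2 with NETs.

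The costimulatory receptors of T cells included 3 of the 4 members with the highest FPKM. By edgeR 0 of 7 were at an unadjusted p under 0.05 (against 6.72% higher and 6.06% lower of all genes tested). Tnfrsf18 had 242, 211 and 239 CPM with vehicle and 286, 266 and 226 CPM with NETs, and its neighbour Tnfrsf4, which lies 9551 bases away on chromosome 4, had 203, 177 and 236 CPM and 226, 235 and 189 CPM. In both, NETs replicate 3 was the lowest NETs library and fell inside the vehicle range. For Tnfrsf4 the other NETs libraries fell inside that range too. The log2 ratios were 0.18 (SE 0.09; edgeR adjusted p = 0.444) for Tnfrsf18 and 0.09 (SE 0.11; adjusted p = 0.755) for Tnfrsf4. Tnfrsf9, the gene of CD137, had 65.1, 45.8 and 63.7 CPM with vehicle and 66.2, 87.4 and 50.4 CPM with NETs, a log2 ratio of 0.24 (SE 0.18; adjusted p = 0.599). Without NETs replicate 2 the ratio of Tnfrsf9 was 0.02, and without vehicle replicate 2 that of Tnfrsf4 was 0.0016.

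Cd27 had 167, 221 and 173 CPM with vehicle and 153, 139 and 185 CPM with NETs. Vehicle replicate 2 stood above the other libraries, and the log2 ratio was −0.22 (SE 0.13; edgeR adjusted p = 0.482), or −0.08 without that library. The whole of Cd27, 4389 bases, overlaps Vamp1 on the other strand, which had 6867 reads against 17712 for Cd27. Without knowledge of strand use the reads of the pair cannot be told apart. The same limit holds for other members that overlap a gene on the other strand. Among them are Tnfrsf9 (6567 reads, with Camta1 at 1386), Tnfrsf18 (25341, with Gm16008 at 442) and Tnfsf9 (582, with Gm11110 at 1325). Tnfrsf1b, the TNF receptor of T cells that lacks a death domain, had vehicle and NETs means of 69.5 ± 6.27 and 75.1 ± 7.49 CPM (± SD, n = 3 each). For Tnfrsf14, the LIGHT receptor HVEM, the means were 44.8 and 42.3 CPM. Tnfrsf8, the activation marker CD30, had only 1.34 ± 0.880 and 2.17 ± 0.670 CPM, and its log2 ratio of 0.70 had an SE of 0.53.

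Death domain receptors also overlapped between the groups. Tnfrsf1a, the TNF receptor that binds TRADD, had 46.0, 49.2 and 44.9 CPM with vehicle and 44.0, 47.4 and 47.4 CPM with NETs. Its log2 ratio was −0.0028 (SE 0.10), the value nearest to 0 among the members tested. Fas had 86.8, 74.8 and 73.1 CPM with vehicle and 63.1, 80.9 and 61.7 CPM with NETs, with NETs replicate 2 inside the vehicle range and a log2 ratio of −0.18 (SE 0.11; edgeR adjusted p = 0.522). Tnfrsf25 had 97.0 to 106 CPM with vehicle and 101 to 114 CPM with NETs, a log2 ratio of 0.10 (SE 0.09). Tnfrsf10b and Tnfrsf21 completed the group at −0.06 (SE 0.13) and −0.49 (SE 0.52), the latter at 1.13 and 0.798 CPM. In all, 4 of 5 lay below 0 (against 6919 of the 13900 genes tested). By edgeR 0 of 5 reached an unadjusted p under 0.05 (against 6.72% higher and 6.06% lower of all genes tested).

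Receptors best known from B cells, myeloid cells and stroma were near the detection limit, apart from Tnfrsf13b, which had 78.6 to 83.2 CPM with vehicle and 80.1 to 90.7 CPM with NETs. Tnfrsf11a (ENSMUSG00000026321; chromosome 1, 105780718 to 105847981), which encodes the RANK ligand receptor of osteoclast precursors and dendritic cells, was the member with the smallest p. It had 0, 2 and 2 reads with vehicle and 21, 12 and 15 reads with NETs, so every NETs library lay above every vehicle library. The ratio of its 48 to 4 reads, scaled for depth, was 11.5 (95% exact binomial interval 4.2 to 43.8, counting error only). That interval pools the reads of each group and leaves out the spread between libraries. Tnfrsf11a passed the filter on low counts only through the NETs libraries, where it is high, so the interval is not a test of a difference. Its fitted log2 ratio was 3.41 (SE 0.85; edgeR adjusted p = 0.223); the adjusted p ranged from 0.0574 without a filter on low counts to 0.812 without NETs replicate 1.

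Ltbr had 1, 0 and 0 reads with vehicle and 1, 3 and 11 with NETs, with most of them in NETs replicate 3, and was not tested. Beside Tnfrsf11a, the myeloid marker Lyz2 had 561, 303 and 338 reads with vehicle and 528, 714 and 660 with NETs. Tyrobp, listed here among the NK cell markers, had 6, 3 and 10 and 21, 23 and 26. The neutrophil gene S100a9 had 0, 0 and 0 and 16, 24 and 20, and S100a8 had 0, 1 and 0 and 7, 11 and 10. Adgre1, of the macrophage list, had 11, 33 and 25 and 37, 44 and 42. Summed reads with vehicle and NETs were also higher with NETs for Cd68 (239 and 269), Mpo (81 and 107), Elane (2 and 8) and Cxcr2 (4 and 8). So were those of Klrb1c (1 and 7), Ncr1 (2 and 4), Siglech (0 and 3) and Camp (0 and 1). Some other markers of these lists did not share that direction. Csf1r had 31, 8 and 16 reads and 28, 12 and 18. Itgam had 135 reads in all with vehicle and 118 with NETs, Flt3 had 11 and 4, Xcr1 had 3 and 2, and the neutrophil gene Ltf had 23 and 19. Eomes, also of the NK cell list, had 189, 90 and 108 reads with vehicle and 96, 118 and 71 with NETs. The part of these in the reads of Tnfrsf11a and Ltbr was not tested. Cd40, Tnfrsf12a and Tnfrsf13c averaged 0.616 to 2.05 CPM with vehicle and 0.864 to 2.03 CPM with NETs and overlapped between groups.

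A cluster of 3 receptor genes on chromosome 7, Tnfrsf26, Tnfrsf22 and Tnfrsf23, had lower mean levels with NETs. Tnfrsf22 and Tnfrsf23 are known as decoy receptors for TRAIL, and Tnfrsf26 is a related mouse gene. Tnfrsf26 had 53.1, 57.8 and 52.8 CPM with vehicle and 41.8, 46.4 and 44.8 CPM with NETs, which did not overlap (log2 ratio −0.29, SE 0.10; edgeR adjusted p = 0.273). Tnfrsf22 had 13.5, 13.5 and 13.4 CPM with vehicle and 11.8, 11.8 and 8.69 CPM with NETs, again without overlap (−0.31, SE 0.18; adjusted p = 0.478). Tnfrsf23 averaged 3.57 and 3.07 CPM and overlapped. All 3 lie across the antisense gene E230032D23Rik (238 reads), and Tnfrsf22 and Tnfrsf23 share 17.3% and 18.0% of their 50-base transcript words with each other, so their counts are uncertain.

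**Figure D4:**
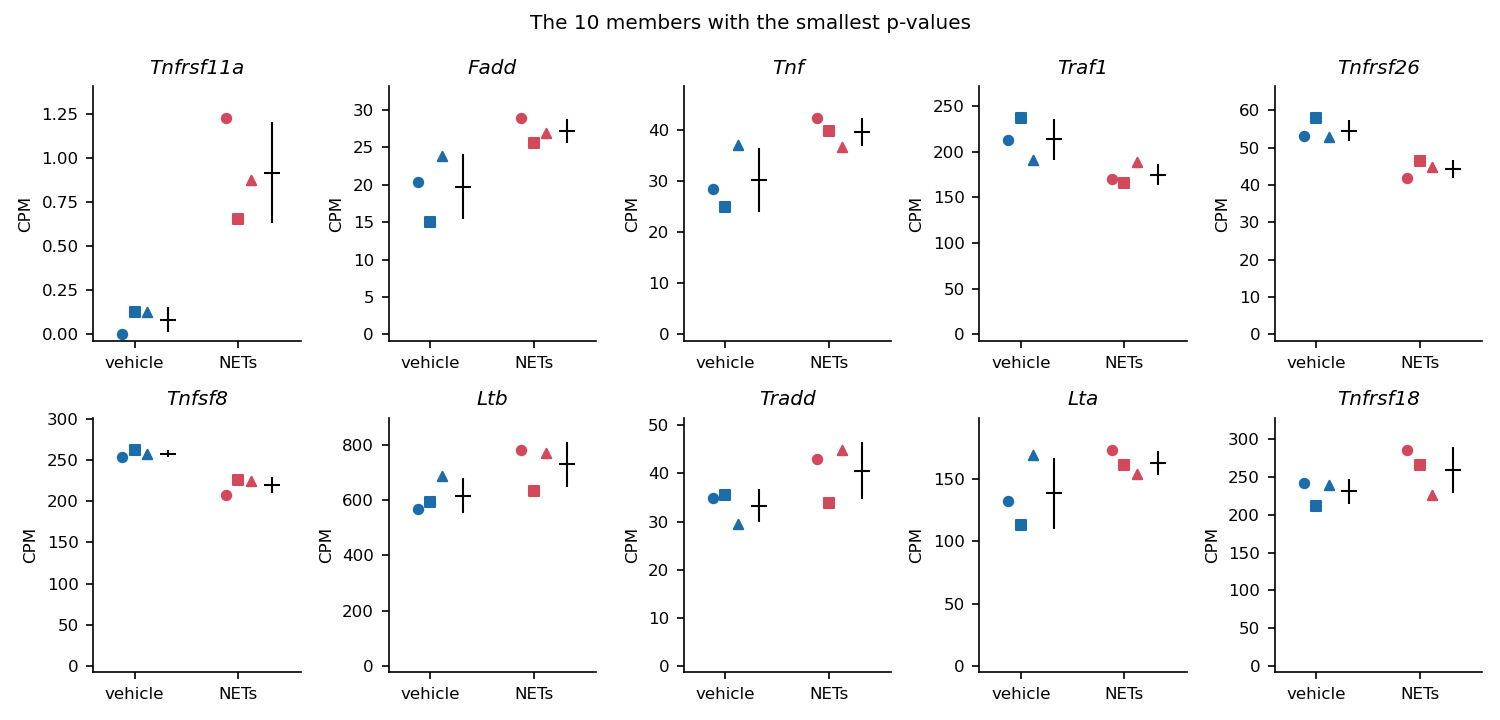
CPM per library for the 10 members with the smallest p-values, with the mean and SD of each group (n = 3) in black. Circles, squares and triangles are replicates 1, 2 and 3; vehicle replicate 3 lies among the NETs libraries in Tnf and Lta.

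Of the 10 adaptors and kinases, 7 lay above 0 (against 50.2% of all genes tested) and 3 below. In this group 2 were higher and 1 lower at an unadjusted p under 0.05 by edgeR (against 6.72% and 6.06%). Fadd, the adaptor that joins death domains to caspase-8, had 20.3, 15.1 and 23.7 CPM with vehicle and 28.8, 25.6 and 26.9 CPM with NETs, without overlap. The means were 19.7 ± 4.37 and 27.1 ± 1.62 CPM (n = 3 each, ± SD). The fitted ratio of Fadd was 1.39, a log2 ratio of 0.47 (SE 0.16; edgeR adjusted p = 0.261), and 0.62 without vehicle replicate 3 (adjusted p = 0.0462). Over all alternatives its adjusted p ranged up to 0.812, reached without NETs replicate 1. Tradd, which bridges TNFR1 to TRAF2 and RIPK1, had 34.9, 35.6 and 29.5 CPM with vehicle and 43.0, 33.9 and 44.9 CPM with NETs. NETs replicate 2 fell inside the vehicle range, and the log2 ratio was 0.30 (SE 0.13; adjusted p = 0.370).

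Traf1, an NF-κB target gene that joins TRAF2 at costimulatory receptors, had 213, 236 and 191 CPM with vehicle and 170.3, 166 and 189 CPM with NETs. The gap between the groups was small, with vehicle replicate 3 just above NETs replicate 3. The means were 213 ± 22.6 and 175 ± 12.03 CPM, a log2 ratio of −0.28 (SE 0.10; edgeR adjusted p = 0.271). Traf3, a brake on the alternative NF-κB pathway, had 94.9, 93.5 and 92.3 CPM with vehicle and 92.0, 91.2 and 88.2 CPM with NETs, wholly lower by a log2 ratio of only −0.04 (SE 0.08; adjusted p = 0.885).

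For the other TRAF genes and Ripk1 the groups overlapped. Traf6, the ubiquitin ligase downstream of CD40 and RANK, had 104, 105 and 138 CPM with vehicle and 125, 134 and 127 CPM with NETs, a log2 ratio of 0.17 (SE 0.10; edgeR adjusted p = 0.516). Traf2, the core adaptor of the family, averaged 52.5 and 52.7 CPM, Traf5 44.7 and 44.7 CPM, Traf4 83.9 and 84.1 CPM, and Traf7 155 ± 2.82 and 159 ± 3.39 CPM (± SD, n = 3 each). Ripk1, the kinase at the branch between survival and death, averaged 86.0 and 82.4 CPM. Summed over the 10 genes, adaptors and kinases took 898 ± 20.9 CPM in the vehicle group and 885 ± 7.37 CPM in the NETs group (± SD, n = 3 each).

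Summed over the receptors the level was 1217 ± 18.0 CPM with vehicle and 1229 ± 50.5 CPM with NETs. The ligands summed to 1120, 1113 and 1307 CPM in vehicle replicates 1 to 3 and 1350, 1215 and 1312 CPM in NETs replicates 1 to 3, with Ltb the largest contributor in each. Vehicle replicate 3 again lay inside the NETs range and the other vehicle libraries below it.

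The genes through which these receptors signal were read from the same fit as 5 lists with 47 genes, all of them tested. By edgeR 0 of 47 passed over all genes (0% of all genes tested), and at an unadjusted p under 0.05 there were 1 higher (2.13%, against 6.72%) and 5 lower (10.6%, against 6.06%). Of the 47 log2 ratios, 32 lay below 0, where 6919 of the 13900 genes tested did. The median of the 47 was −0.05, against 0.00 over all genes tested. The NETs libraries lay wholly below the vehicle libraries in 10 (21.3%, against 9.04%) and wholly above in 2 (4.26%, against 7.68%). DESeq2 called 1 gene, Birc2 (2.39% of 6778 genes with an adjusted p), edgeR without a filter called Birc2 and Tnfaip3 (1.3% of 24780 genes), and edgeR without vehicle replicate 3 called the same 2, all lower. Limma-voom and limma-trend called 0 of the 47, and 1 and 2 of all 13900 genes tested. Only 2 were lower at an unadjusted p without NETs replicate 1 (against 3.02% of all genes tested). The number higher was 0 without vehicle replicate 1 or 2 (against 4.08% and 4.0%) or NETs replicate 1 or 3 (against 3.03% and 6.22%). It was 2 without vehicle replicate 3 (against 11.0%) and 3 without NETs replicate 2 (against 7.09%).

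Both called genes belong to the ubiquitin ligases and deubiquitinases, of which 8 of 12 lay below 0 (against 6919 of the 13900 genes tested). Birc2, which encodes the ligase cIAP1 that marks RIPK1 and the kinase NIK, had 163, 139.7 and 126 CPM with vehicle and 103, 111 and 114 CPM with NETs, which did not overlap (log2 ratio −0.37, SE 0.10; edgeR adjusted p = 0.223, and DESeq2 adjusted p = 0.0387). Tnfaip3, which encodes A20, an enzyme that ends NF-κB signalling, had 93.2, 93.5 and 77.2 CPM with vehicle and 63.9, 76.4 and 60.6 CPM with NETs, also without overlap (−0.38, SE 0.11; edgeR adjusted p = 0.223, and DESeq2 adjusted p = 0.0583).

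The NF-κB subunits and inhibitors had 7 of 10 genes below 0 (against 6919 of the 13900 genes tested) and a median of −0.11. At an unadjusted p under 0.05 by edgeR there were 0 (against 6.72% higher and 6.06% lower of all genes tested). Nfkbia, the inhibitor that NF-κB itself induces, stood at −0.19 (SE 0.10) and Nfkb2, the subunit of the alternative pathway, at −0.16 (SE 0.11). Among kinases and linkers 11 of 15 lay below 0, and 3 were lower at an unadjusted p under 0.05 by edgeR, Tank at −0.32 (SE 0.11), Ikbke at −0.23 (SE 0.10) and Tab2, which links TRAF6 to the kinase TAK1, at −0.21 (SE 0.08). In the death branch 6 of 8 lay below 0 with a median of −0.02, and the smallest p-value was that of Mlkl, the pore former of necroptosis, at −0.40 (SE 0.29). Of the sheddases, Adam10 had 154 to 169 CPM with vehicle and 179 to 183 CPM with NETs (log2 ratio 0.19, SE 0.08; edgeR adjusted p = 0.344), and Adam17, which releases TNF from the membrane, stood at 0.01 (SE 0.09).

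**Figure D5:**
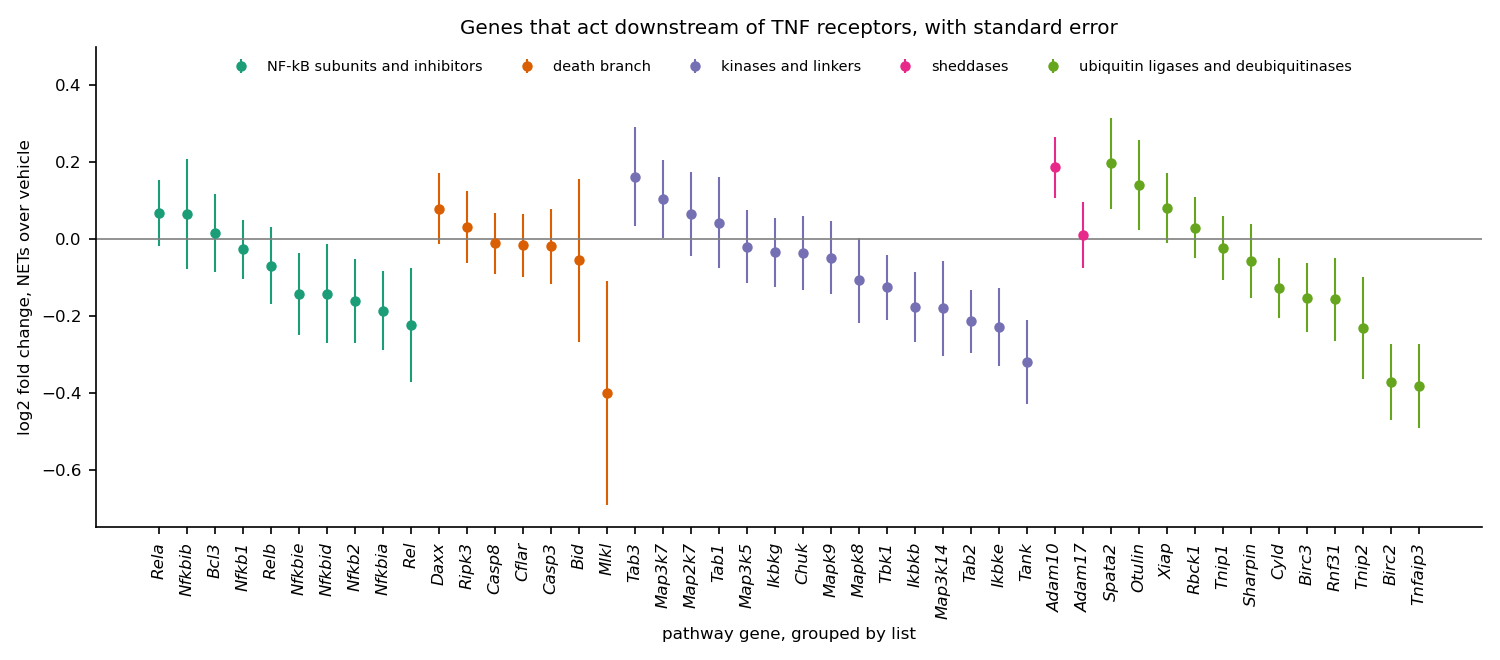
Log2 ratio of NETs over vehicle with its standard error (edgeR, 3 libraries a group) for 46 of the 47 genes that act downstream of TNF receptors or shed their ligands, grouped by list. Most points lie below 0, with Mlkl, Tnfaip3 and Birc2 lowest.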

How the data were processed

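The deposited table holds unnormalized counts of reads for each Ensembl gene in the 6 libraries, per the file headers. The submitters' processing notes name STAR, DESeq2 and the build mm9. No source used here names the counting program or says whether it used strand. Gene positions in the deposited table equalled those of GENCODE M21 (GRCm38) for 98.3% of 54409 shared identifiers, so coordinates are GRCm38. The authors also deposited FPKM values (counts scaled by gene length and library size), which were used for levels between genes and for alternatives.

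All 54532 rows entered the fit, and edgeR's filterByExpr kept 13900. Counts were scaled by TMM and tested with edgeR 4.0.16 in R 4.3.3 (quasi-likelihood, robust, two-sided, treatment as the only term), with Benjamini-Hochberg adjustment over all genes tested and a threshold of 0.05. CPM is a count scaled to a library total of 1000000. Total counts were 15657622 to 18655997 per library. The median standard error of a log2 fold change was 0.146. Alternatives used DESeq2 1.42.0, limma 3.58.1 (voom, and limma-trend on log2 of FPKM plus a pseudocount of 1 or 0.1), other scalings and filters, a replicate block and each library left out. The gene test was tested on simulated counts.

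Members, lists and rules were chosen with earlier results of these data known. Genes named with values were a panel of 27 members, the 10 members with the smallest p-values, the 10 with the highest FPKM and the 2 smallest p-values of each pathway list, 41 genes in all, of which 1 is not reported here; values of other members, shown so that every member is accounted for, and of Ikbke were chosen after they had been seen. The labels do not state whether a replicate is its own mouse or culture, and the p-values therefore reflect only the spread of these libraries, which may be technical.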

Additional observations from a re-analysis of the deposited data

How the results depend on the processing

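Of 40 named genes tested, 32 kept their direction under every one of the 16 alternatives in which they were tested (Fasl, Tnfrsf8, Tnfrsf11a and Mlkl were not tested with a mean of at least 5 CPM); the other 8 had a main log2 fold change of at most 0.22 in size and changed sign in 26 of 636 values. Adam17 stood at −0.0010 with library totals only, −0.0028 with a mean of at least 5 CPM, −0.0035 among protein-coding genes only, and −0.0029 and −0.0031 by limma-trend on FPKM with a pseudocount of 1 and 0.1. Under the last 4 of these settings Traf5 stood at −0.0015, −0.0024, −0.00023 and −0.00028, and Tnfrsf1a at 0.0048 without a filter. With each library left out, the log2 fold change ranged from −0.036 to 0.069 for Adam17, −0.064 to 0.10 for Traf5, −0.031 to 0.044 for Tnfrsf1a, −0.053 to 0.077 for Traf2, −0.0014 to 0.45 for Tnfsf11, −0.21 to 0.073 for Tnfrsf14, −0.21 to 0.020 for Fasl and −0.13 to 0.067 for Ripk1.

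At an unadjusted p under 0.05, members higher numbered 8 without a filter, where 50 were tested (against 5.29% of all genes tested). They numbered 3 with a mean of at least 5 CPM, where 33 were tested (against 7.33%). With a library left out they numbered 2 to 8 (against 3.03% to 11.0%). Members lower numbered 1 to 4 (against 3.02% to 9.48% with a library left out). Members called after adjustment numbered 0 to 3, all higher, and the 3 came without vehicle replicate 3, where 2.81% of all genes tested were called. Pathway genes called lower numbered 1 by DESeq2 and 2 without a filter, where 2.39% and 1.3% of all genes were called in either direction. With a library left out 0 to 2 were called lower, the 2 without vehicle replicate 3 (against 2.81%). Unadjusted, 0 to 3 were then higher and 2 to 7 lower (against 3.03% to 11.0% and 3.02% to 9.48% of all genes tested). The cause of these changes was not tested. Replicate numbers did not pair the libraries: same-numbered libraries deviated with correlations of −0.0254, −0.0596 and −0.175, and 0 of 3 vehicle libraries correlated best with their own number. With the replicate block 4 members were higher and 3 lower (against 5.14% and 4.47% of all genes tested), 0 were called, and 0 pathway genes were higher and 4 lower.

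Members under about 2 CPM, Tnfrsf11a included, rest on few reads, and differences in them are limited by depth.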
